A study of Sus scrofa with 16 samples.

Results

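The 9 genes described here make, break down and regulate polyamines: AMD1, ODC1, SRM, SMS, SAT1, PAOX, OAZ1, OAZ2 and AZIN1. The genes were found by symbol, and 8 of the 9 had counts among the 25880 genes of the deposited files. The annotated identifier of SRM, which codes for spermidine synthase, was not among those used, and SRM was not analysed here. AZIN1 had too few reads to be tested, so 7 genes were compared between diets.

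RNA came from the liver of 16 crossbred pigs, the offspring of Polish Landrace x Polish Large White sows and Duroc x Pietrain boars, fattened from about 60 kg to 118 kg in individual pens. Group R received rapeseed oil (3 gilts and 2 barrows), group B beef tallow (2 gilts and 3 barrows) and group C coconut oil (3 gilts and 3 barrows), in diets of similar energy and protein content. Every group received an added fat, so the comparisons are between fats and not with a diet without one. One library per pig was made from the 3′ ends of mRNA, and the values are whole-number counts of reads per gene, with 705669 to 1767671 reads per pig counted on genes (median 1018321.5).

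Putrescine, spermidine and spermine are small positively charged molecules that bind nucleic acids and are needed for growth and protein synthesis. Ornithine decarboxylase makes putrescine from ornithine, while S-adenosylmethionine decarboxylase provides the aminopropyl groups that turn putrescine into spermidine and spermidine into spermine. Acetylation and oxidation return the larger polyamines to putrescine, and antizymes, whose synthesis depends on a polyamine-driven shift of the reading frame, send ornithine decarboxylase to degradation.

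Of these genes, AMD1 was the one that passed the test between diets. It was about 2-fold higher in the liver of pigs fed beef tallow than in those fed rapeseed oil, and the lowest pig of group B exceeded the highest of group R, but the call was lost in 6 of the 10 fits that left out 1 pig. ODC1, SAT1, PAOX, OAZ1 and OAZ2 did not pass the test in any comparison of diets, and their fitted differences between groups R and B lay between -0.24 and 0.31 on the log2 scale. The log2 fold change of SMS between groups R and B was -0.53 and did not pass the test after adjustment. Fewer cells of a type and less RNA per cell cannot be told apart in such bulk samples.

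AMD1 (ENSSSCG00000004392, chromosome 1, 76839448 to 76863745 in Sscrofa11.1) codes for S-adenosylmethionine decarboxylase, one of the regulated steps of polyamine synthesis. In counts scaled to the size of each library (CPM), its level in group R was 47.1, 87.2, 58.2, 104.1 and 66.9 in pigs 1 to 5 (mean 72.7 ± 22.9, SD, n = 5). In group B it was 129.1, 123.1, 169.3, 177.4 and 154.8 CPM in pigs 1 to 5 (mean 151 ± 24.0, SD, n = 5). In group C it ranged from 57.1 to 179.1 CPM with a median of 106.9 (mean 110 ± 39.5, SD, n = 6). Groups R and B did not overlap, while group C spanned nearly the whole range. Coconut oil pig 4 was the highest of the 16 pigs, and coconut oil pigs 3 and 6 lay among the pigs of group R. Behind the AMD1 values stood 37 to 258 reads per pig, with a median of 127. Coconut oil pig 3 had the 37 reads, the smallest library (705669 reads on genes) and the highest share of reads aligned to several places (38.1%).

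**Figure D1:**
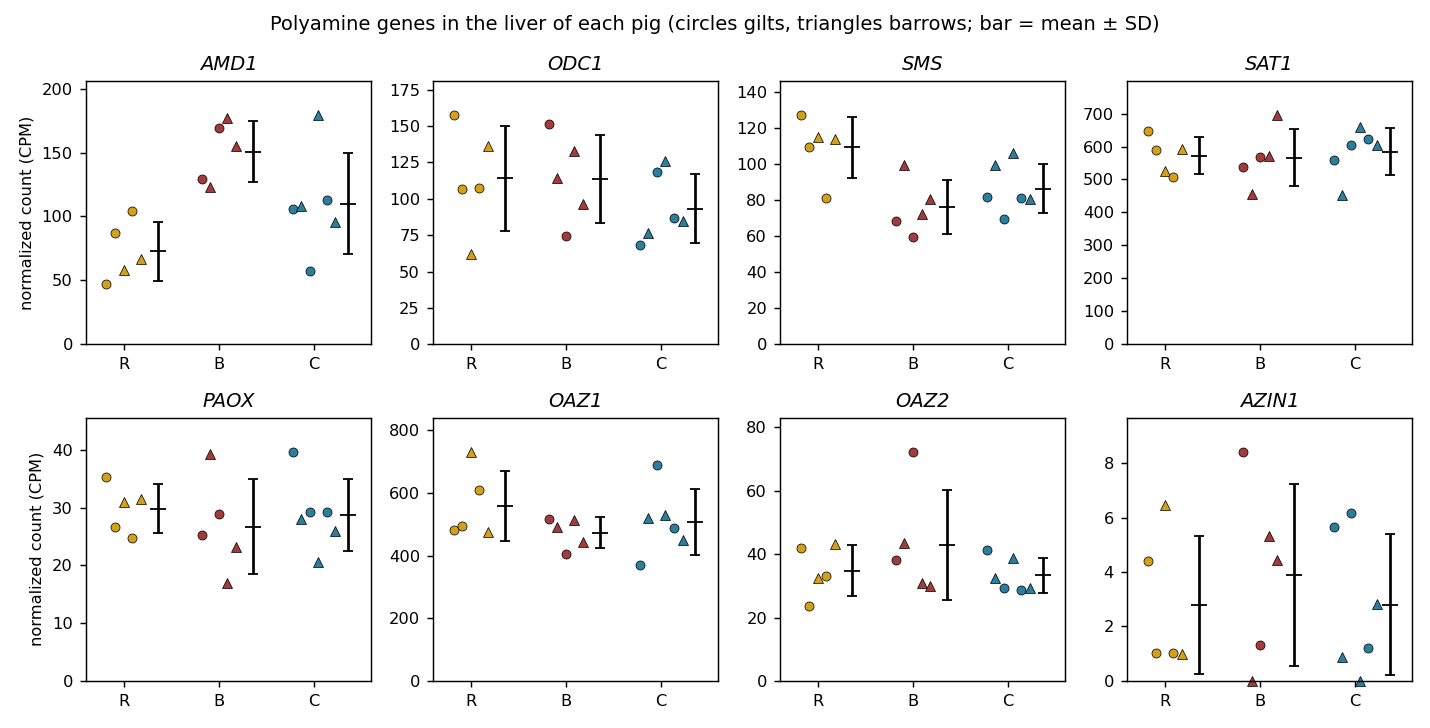
Normalized count (CPM, vertical axis, from 0) of the 8 genes with counts in each pig by diet: R rapeseed oil, B beef tallow, C coconut oil. Each point is 1 pig (circles gilts, triangles barrows, in the order of pig number), and the bar beside each diet is the mean ± SD. AMD1 in group B starts at 123.1 CPM, above the highest pig of group R at 104.1 CPM, and for each of the other genes the points of groups R and B overlap.

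With group R as the reference, the log2 fold change of AMD1 in group B was 1.05 (SE 0.22, 95% interval 0.59 to 1.52), a 2.08-fold higher level with the beef tallow diet (adjusted p = 0.0305, edgeR quasi-likelihood test). AMD1 was the 1 of 7 tested genes called, and over all 6318 genes tested 70 were called, or 1.11%. It was also the 1 of 7 whose groups did not overlap, against 4.57% of all genes tested. By its p-value it ranked 36 among all genes. The genes were chosen with earlier results of these data known, and the paper had already reported AMD1 as higher with beef tallow. The counts among the 7 genes are therefore not independent of that choice.

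The size of the AMD1 difference moved little when single pigs were left out, but the call did. With each of the 10 pigs left out in turn, the log2 fold change lay between 0.93 and 1.22 and the adjusted p between 0.0174 and 0.104. The call was kept in 4 of the 10 fits and lost without rapeseed oil pig 1 (adjusted p = 0.0811), pig 2 (0.0509), pig 3 (0.104) or pig 5 (0.0878), or without beef tallow pig 4 (0.0720) or pig 5 (0.0711).

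**Figure D2:**
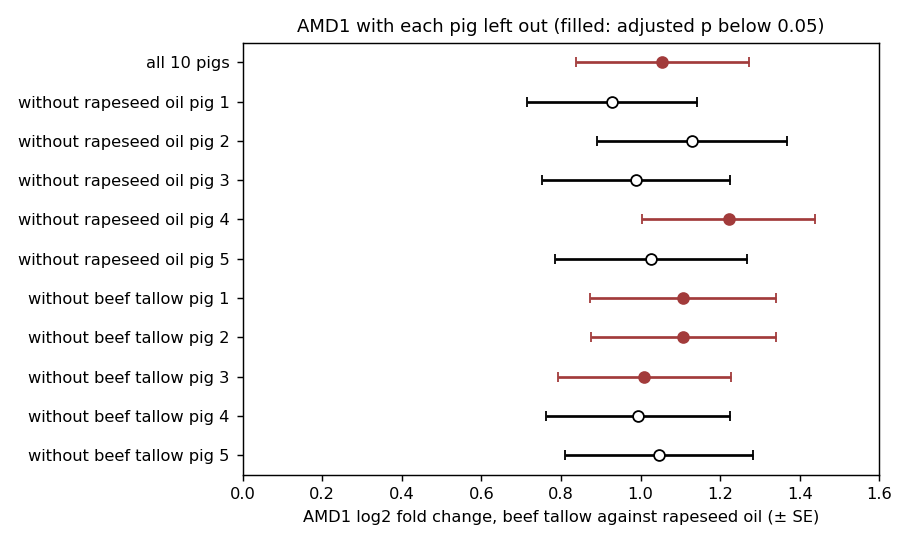
Log2 fold change of AMD1 for group B against group R (horizontal axis) with all 10 pigs and with each pig left out in turn, as points with the standard error. Filled points have an adjusted p below 0.05; the fold change stays between 0.93 and 1.22, while 6 of the 10 fits with a pig left out are open.

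The log2 fold change of AMD1 between groups R and C was 0.60 (SE 0.24, 95% interval 0.09 to 1.11) and did not pass the threshold (adjusted p = 0.299). In that comparison 0 of the 7 genes were called, and 2 had an unadjusted p below 0.05, AMD1 and SMS. Over all 6528 genes tested, 9 were called (0.138%) and 13% had an unadjusted p below 0.05. Of the 6 pigs of group C, 4 had more AMD1 than any pig of group R. Between groups B and C the log2 fold change of AMD1 was -0.45 (SE 0.22, 95% interval -0.92 to 0.01, adjusted p = 0.444), and 5 of the 6 pigs of group C lay below every pig of group B. Here 0 of the 7 genes were called by edgeR and 0 had an unadjusted p below 0.05, against 0.0587% and 11.5% of the 6812 genes tested. Groups that did not overlap were found for 0 of the 7 here and against group R, where 1.45% and 1.46% of all genes tested had them. DESeq2 also called 0 of those to which it gave an adjusted p, 7 between groups R and C and 5 between groups B and C. Each pair of these comparisons shares a group of pigs, so their values are not independent.

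ODC1 (chromosome 3, 126087013 to 126095644) codes for ornithine decarboxylase, the first enzyme of the pathway. Its level was 157.4, 106.7, 62.1, 107.1 and 136.7 CPM in group R (mean 114 ± 36.1, SD, n = 5) and 151.3, 114.6, 74.2, 132.8 and 96.2 CPM in group B (mean 114 ± 30.2, SD, n = 5). Group C ranged from 68.0 to 125.9 CPM with a median of 85.6 (mean 93.3 ± 23.5, SD, n = 6). The 3 groups overlapped throughout. The log2 fold change was -0.01 (95% interval -0.53 to 0.51, adjusted p = 0.992) between groups R and B, -0.32 (adjusted p = 0.571) between groups R and C and -0.29 (adjusted p = 0.615) between groups B and C. The number of AMD1 reads per ODC1 read, which needs no scaling between libraries, was 0.299 to 0.971 in group R, 0.854 to 2.28 in group B and 0.481 to 1.56 in group C. The ranges of groups R and B thus overlapped, although the means were 0.703 and 1.43.

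SMS (chromosome X, 18118332 to 18169396) codes for spermine synthase, which uses the product of AMD1 to make spermine. Its level was 127.3, 109.8, 115.1, 81.4 and 114.1 CPM in group R (mean 110 ± 17.01, SD, n = 5) and 68.8, 99.7, 59.7, 72.2 and 80.7 CPM in group B (mean 76.2 ± 15.1, SD, n = 5). Group C ranged from 69.4 to 106.5 CPM with a median of 81.5 (mean 86.6 ± 13.8, SD, n = 6). Of the 5 pigs of group R, 4 lay above every pig of group B and every pig of group C, and rapeseed oil pig 4 lay among them. The log2 fold change was -0.53 between groups R and B (SE 0.19, 95% interval -0.93 to -0.13, adjusted p = 0.182) and -0.35 between groups R and C (SE 0.16, adjusted p = 0.369). With an unadjusted p below 0.05, SMS and AMD1 made up 2 of the 7 genes tested between groups R and B, against 15% of all genes tested. Between groups B and C it was 0.19 (adjusted p = 0.696). Reads of AMD1 per read of SMS ranged from 0.370 to 1.28 in group R, from 1.23 to 2.84 in group B and from 0.822 to 1.68 in group C, so that rapeseed oil pig 4 and beef tallow pig 2 kept groups R and B from separating.

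SAT1 (chromosome X, 19908037 to 19910553) codes for spermidine/spermine N1-acetyltransferase, which marks polyamines for export or oxidation. Its level was 646.6, 590.9, 526.2, 508.9 and 591.0 CPM in group R (mean 573 ± 55.6, SD, n = 5) and 536.4, 455.1, 569.1, 572.7 and 694.6 CPM in group B (mean 566 ± 86.3, SD, n = 5). Group C ranged from 453.1 to 659.6 CPM with a median of 606.0 (mean 585 ± 72.1, SD, n = 6). The groups overlapped, and over the 16 pigs its coefficient of variation was 11.81%. Of the genes kept over the 3 diets, 0.711% reached that value or went below it. The coefficient also depends on read depth, and SAT1 had 393 to 1076 reads per pig. The log2 fold changes were -0.02 (95% interval -0.36 to 0.32), 0.02 and 0.05 between groups R and B, R and C, and B and C, with adjusted p of 0.973, 0.963 and 0.926.

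PAOX (chromosome 14, 141360509 to 141369642) codes for the peroxisomal oxidase of acetylated polyamines. It was counted with 16 to 49 reads per pig, and its mean level was 29.8 ± 4.19 CPM in group R (SD, n = 5), 26.7 ± 8.23 in group B (SD, n = 5) and 28.8 ± 6.24 in group C (SD, n = 6). The groups overlapped, with the lowest value, 16.9995 CPM, in beef tallow pig 4 and the highest, 39.6 CPM, in coconut oil pig 1. The log2 fold change between groups R and B was -0.16 (95% interval -0.66 to 0.34, adjusted p = 0.8001), and those with group C were -0.05 and 0.11.

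OAZ1 (chromosome 2, 76293142 to 76296626) and OAZ2 (chromosome 1, 107325225 to 107338475) code for antizymes of ornithine decarboxylase. OAZ1 had mean levels of 558 ± 110 CPM in group R (SD, n = 5), 473 ± 48.7 in group B (SD, n = 5) and 508 ± 106 in group C (SD, n = 6), and the groups overlapped. Its log2 fold change was -0.24 between groups R and B (95% interval -0.59 to 0.12, adjusted p = 0.545), -0.14 between groups R and C and 0.10 between groups B and C. OAZ2 was counted with 19 to 110 reads per pig. Its mean levels were 34.8 ± 8.03 CPM in group R (SD, n = 5), 42.9 ± 17.3 in group B (SD, n = 5) and 33.3 ± 5.42 in group C (SD, n = 6). The wide spread of group B came from beef tallow pig 3 at 72.2 CPM, while the other pigs of that group lay between 29.9 and 43.5 CPM, within or next to the range of group R. The log2 fold change of OAZ2 was 0.31 between groups R and B (95% interval -0.25 to 0.87, adjusted p = 0.619), -0.08 between groups R and C and -0.39 between groups B and C (adjusted p = 0.540). Without beef tallow pig 3, the log2 fold change of OAZ2 was 0.03 between groups R and B and -0.11 between groups B and C.

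AZIN1 (chromosome 4, 34221368 to 34257261) codes for an antizyme inhibitor, a catalytically inactive relative of ornithine decarboxylase that binds antizymes. It was counted with 0 to 11 reads per pig, did not pass the filter on low counts, and no fold change is given. Its highest value was 8.41 CPM in beef tallow pig 1. With 0 reads, beef tallow pig 2 and coconut oil pig 4 allow levels of up to 3.18 and 3.63 CPM (3 reads), which covers counting error only. AZIN1 was not tested between diets.

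**Figure D3:**
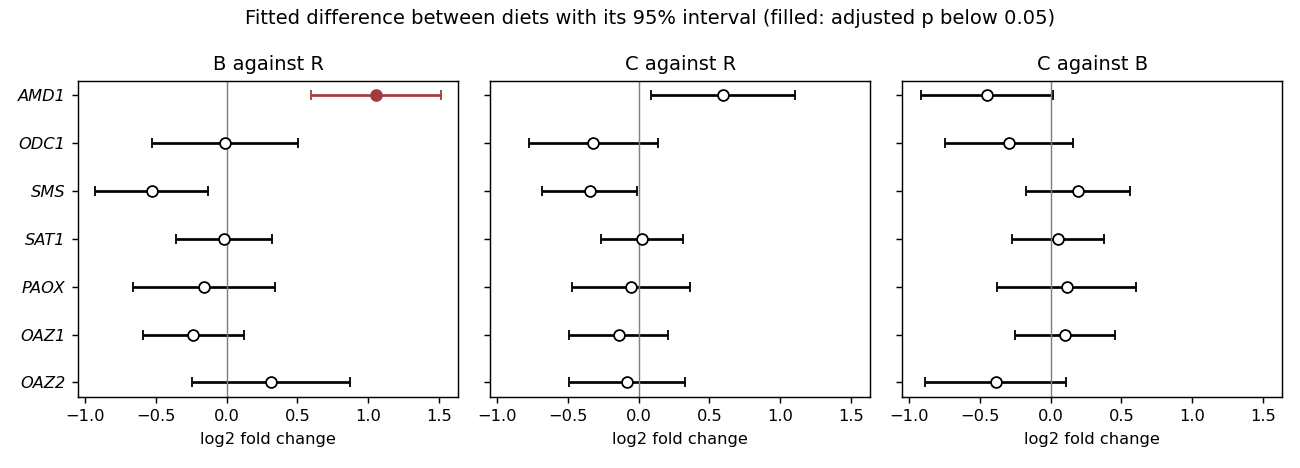
Log2 fold change (horizontal axis) of the 7 tested genes for group B against R, C against R and C against B, as points with 95% intervals. The filled point, AMD1 for group B against R at 1.05, is the 1 value with an adjusted p below 0.05, and every interval of the other genes lies between -1 and 1.

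The 95% intervals of the 6 genes not called between groups R and B all lay within a 2-fold change in either direction. The same held for 6 of 7 genes between groups R and C, where AMD1 was the exception, and for 7 of 7 between groups B and C. The median log2 fold change of the 7 genes was -0.02, -0.08 and 0.05 in the 3 comparisons, beside 0.01, -0.00 and -0.00 over all genes tested.

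Gilts and barrows were compared over the 16 pigs, since SMS and SAT1 lie on the X chromosome and the sexes were not evenly spread over the diets. None of the 7 genes was called by edgeR or DESeq2, 0 had an unadjusted p below 0.05 by edgeR, and the background was 0.0786% of 6365 genes called and 4.02% with an unadjusted p below 0.05. The log2 difference of barrows minus gilts was 0.16 for SMS (95% interval -0.18 to 0.50), -0.04 for SAT1 (95% interval -0.29 to 0.22) and 0.22 for AMD1 (95% interval -0.30 to 0.74), each with an adjusted p of 0.998. The difference of AMD1 between groups R and B was 0.35 larger in barrows than in gilts on the log2 scale, with a 95% interval from -0.63 to 1.34 and an adjusted p of 0.999 for the interaction. In the 3 tests of the interaction 0 of the 7 genes were called and 0 had an unadjusted p below 0.05, where 0% of all genes were called and 3.96%, 3.98% and 3.52% had one. With sex as a covariate, the log2 fold change of AMD1 between groups R and B was 1.09 (adjusted p = 0.0327).

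The levels of the other tested members were set beside that of AMD1 pig by pig. Over the 16 pigs, Pearson's r of AMD1 on the scale of log2 CPM was -0.55 with PAOX, -0.51 with SMS, -0.42 with OAZ1, 0.20 with OAZ2, -0.06 with ODC1 and -0.01 with SAT1. After the mean of each diet was subtracted, r was -0.55 with PAOX and -0.02 with SMS, so r with SMS was near 0 within the diets and that with PAOX was not. These points share libraries and depth, PAOX has few reads, and the values are a description.

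The 5 genes whose level most resembled that of AMD1, by Pearson's r over the 16 pigs among 6890 genes, were DDX18 (r = 0.92), TMED5 (0.92), DDX21 (0.89), UGGT1 (0.89) and FKBP5 (0.87). DDX18 and DDX21 code for RNA helicases, TMED5 for a protein of transport vesicles, UGGT1 for a glucosyltransferase of the endoplasmic reticulum and FKBP5 for a co-chaperone of steroid receptors. With the mean of each diet subtracted, r was 0.86, 0.85, 0.81, 0.85 and 0.78, and without rapeseed oil pig 1 and coconut oil pig 3, the pigs farthest from the median of AMD1, it was 0.88, 0.91, 0.85, 0.83 and 0.80. Between groups R and B the log2 fold changes of these genes were 0.73, 0.69, 0.91, 0.71 and 1.20. None passed the threshold by edgeR (adjusted p 0.0604 to 0.142). The genes were picked for likeness to AMD1 over these same pigs. Their positive values, and in part the r values above, follow largely from that choice. DESeq2, tried on these genes after their values were seen, called TMED5 (adjusted p = 0.00785) and DDX21 (adjusted p = 0.0109) and not the other 3. By Spearman's rho, DDX18, POLR1G, TMED5 and KPNA4 came first, and DDX21 and RPF2 tied for the next place (rho = 0.86). RPF2, named after its values were seen, starts 53.4 kb beyond the end of AMD1 on chromosome 1. Its r with AMD1 was 0.79, and 0.61 with the mean of each diet subtracted. Of the other genes near AMD1, GTF3C6, which lies between them with a median of 7.5 reads per pig, had an r of 0.03, SLC16A10 beyond RPF2 had 0.47 and CDK19 on the other side had 0.40. Between groups R and B the log2 fold change by edgeR was 1.00 for RPF2 (adjusted p = 0.119) and 1.22 for SLC16A10 (adjusted p = 0.0818). It was 0.02 for CDK19 (adjusted p = 0.967) and -0.16 for DDO (adjusted p = 0.834). DDO lies beyond CDK19 and had an r of -0.35 with AMD1.

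In the pathways that supply and use the same molecules, 41 further genes were listed, 38 had counts and 20 were tested. In each of the 3 comparisons of diets 0 of the 20 were called by edgeR. DESeq2 called OTC between groups R and B (adjusted p = 0.0335) and GNMT between groups B and C (adjusted p = 0.00976). Over all genes DESeq2 also called more than edgeR in each comparison, such as 53 against 4 between groups B and C. An unadjusted p below 0.05 was found for 6 of the 20 between groups R and B, 8 between groups R and C and 2 between groups B and C, where 15%, 13% and 11.5% of all genes tested had one. The median log2 fold change of the 20 was 0.13, -0.00 and 0.03. The values that follow are of genes that did not pass the edgeR test with every pig and the filter on low counts.

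Among enzymes that make or use ornithine, the substrate of ODC1, ARG1 codes for the arginase of the liver. Its level was 1118 ± 339 CPM in group R (SD, n = 5), 1908 ± 492 in group B (SD, n = 5) and 1610 ± 475 in group C (SD, n = 6). The log2 fold change against group R was 0.77 in group B (adjusted p = 0.135) and 0.52 in group C (adjusted p = 0.334), with overlapping groups. Without beef tallow pig 3 the first was 0.90 with an adjusted p of 0.0405. That fit called 149 genes in all, against 70 with every pig. It was the 1 of 10 fits with a pig left out in which ARG1 passed, and the adjusted p ranged up to 0.248. OTC, ornithine transcarbamylase of the urea cycle, was at 436 to 519 CPM in group R and 249 to 359 CPM in group B. It was the 1 of the 20 linked genes tested whose groups R and B did not overlap, against 4.57% of all genes tested. The log2 fold change of OTC was -0.49 (adjusted p = 0.142). Coconut oil gave -0.41 against group R (adjusted p = 0.261), with overlap. OAT, ornithine aminotransferase, differed by 0.66 between groups R and C (adjusted p = 0.291) and by 0.26 between groups R and B. The latter lay between 0.06 and 0.54 with 1 pig left out, and beef tallow pig 3 was at 25.6 CPM, with the other pigs of group B at 143 to 222 CPM. Of the 6 tested genes of this list, 4 had a positive log2 fold change between groups R and B.

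AGMAT, a relative of the enzymes that make putrescine from agmatine, was at 249 to 267 CPM in group R and 299 to 408 CPM in group C, without overlap (log2 fold change 0.37, adjusted p = 0.257), where 1.46% of all genes tested did not overlap. DOHH, which completes the spermidine-dependent hypusine modification of the translation factor eIF5A, differed by 0.62 between groups R and C (adjusted p = 0.209) and 0.39 between groups R and B.

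S-adenosylmethionine, the substrate of AMD1, is used in the liver by glycine N-methyltransferase (GNMT) and nicotinamide N-methyltransferase (NNMT). GNMT was at 435 ± 119 CPM in group R (SD, n = 5), 599 ± 272 in group B (SD, n = 5) and 268 ± 97.2 in group C (SD, n = 6). In group B, pig 3 was at 1075 CPM and the other pigs at 417 to 561 CPM. With 1 pig left out, the log2 fold change of GNMT lay between 0.14 and 0.57 for groups R and B, and between -1.34 and -0.84 for groups B and C. Between groups B and C its log2 fold change was -1.16 (SE 0.28, adjusted p = 0.200), and the groups overlapped by coconut oil pig 2. Against group R it was -0.70 in group C (adjusted p = 0.217). NNMT had a log2 fold change of -0.98 between groups B and C (adjusted p = 0.295) and differed by 0.82 between groups R and B (adjusted p = 0.310), with groups that overlapped. MAT1A, the liver enzyme that makes S-adenosylmethionine, was listed with 0 to 5 reads per pig and was not tested. Reads that fell on no annotated gene made up 15.9% to 30.1% per pig. Counts near 0, as for MAT1A and AZIN1, do not by themselves show low expression.

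Methylthioadenosine is the by-product of spermidine and spermine synthesis, and a salvage pathway returns it to methionine. MTAP, its first enzyme, was at 38.7 ± 7.64 CPM in group R (SD, n = 5), 26.9 ± 10.9 in group B (SD, n = 5) and 25.7 ± 7.65 in group C (SD, n = 6). Its log2 fold change against group R was -0.55 in group B (adjusted p = 0.386) and -0.64 in group C (adjusted p = 0.224). Without beef tallow pig 3, which was at 9.85 CPM, the value of group B was -0.32. The later enzymes APIP and ENOPH1 had values of opposite sign between groups R and B, -0.86 (adjusted p = 0.146) and 0.82 (adjusted p = 0.169). Both rest on few reads, 8 to 37 and 7 to 40 per pig.

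**Figure D4:**
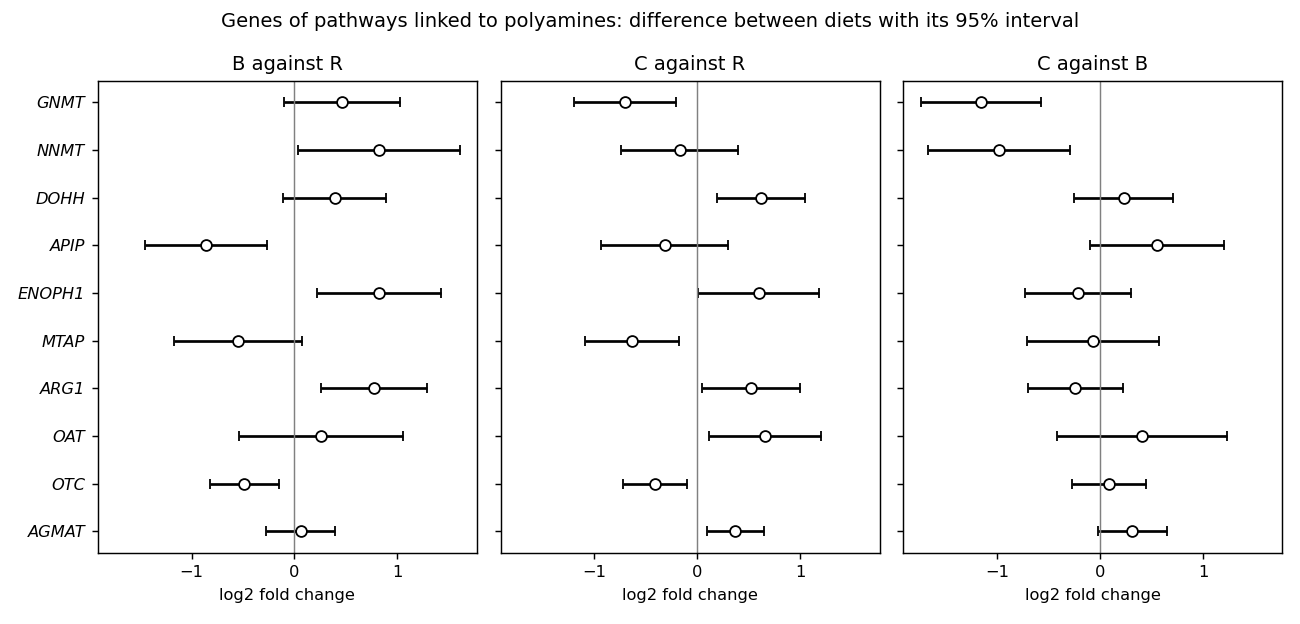
Log2 fold change (horizontal axis) of 10 genes of linked pathways that had an unadjusted p below 0.05 in at least 1 comparison, for group B against R, C against R and C against B, with 95% intervals. No point is filled, since none had an edgeR adjusted p below 0.05 with the filter on low counts; GNMT for group C against B, at -1.16, lies farthest from 0.

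The tissue label was checked with 8 genes of hepatocytes, which together made up 80587 to 215280 CPM per pig, with SERPINA1 at 0 to 3 reads. Of 6 adipocyte genes LEP was at 0 in every pig, and the sum ranged from 4.10 to 23.6 CPM. The sum of 9 macrophage genes was 825 to 1374 CPM in group R, 1041 to 2001 in group B and 817 to 1082 in group C, and that of 5 endothelial genes with counts was 297 to 485, 380 to 484 and 334 to 432 CPM. Between groups R and B, 1 of 8 tested macrophage genes (CD163, log2 fold change 0.79), 1 of 5 endothelial genes (LYVE1, 0.88) and 1 of 7 hepatocyte genes (TTR, -0.78) were called, whereas the summed levels overlapped. Over all 8 marker lists this was 3 of 30 genes tested, against 1.11% of all genes. Between groups B and C 0 of the 30 were called by edgeR, and 4 of the 8 macrophage genes had an unadjusted p below 0.05, against 11.5% of all genes. The share of reads that aligned to several places had medians of 26.5% for the rapeseed oil pigs, 22.2% for beef tallow and 19.8% for coconut oil, over a range of 15.4% to 38.1%. Whether any of these had a part in the difference of AMD1 was not tested.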

How the data were processed

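Libraries of 16 pigs were made from the 3′ ends of liver mRNA. After quality control (FastQC 11.8) and trimming (FLEXBAR 3.5.0), the authors aligned reads to Sus scrofa 11.1 using TopHat 2.1.1, and HTSeq-count 0.11.1 with Ensembl 96 gave the gene counts. The deposited values are raw counts per gene, with no normalization. Reads with several alignments count for no gene, which leaves genes that have near-identical copies uncertain. Whether strand was used in counting is not given in the sources used here. The identifier of AMD1 was paired with its symbol through a gene list of the study, and positions are those of RefSeq on Sscrofa11.1.

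Each pair of diets was fitted on its own with edgeR 4.0.16 (R 4.3.3; quasi-likelihood test, TMM, filterByExpr with a minimum count of 10 and total of 15). The Benjamini-Hochberg adjustment ran over all genes tested, and an adjusted p below 0.05 was called. Sex was compared over 16 pigs, and its interaction with diet in each pair. CPM used TMM library sizes, and correlations used log2 CPM with a prior count of 2. The fits were first tested on simulated data with 200 changed genes per comparison. There edgeR recovered 68%, 74% and 50% of the 2-fold changes for groups R and B, R and C, and B and C. A 2-fold difference can thus go uncalled. Named were all 9 genes, genes of 6 linked pathway lists with an unadjusted p below 0.05 in a pair of diets, and the 5 genes with a symbol most correlated with AMD1. One gene that met this rule is left out of the text and plots, though the counts include it. The genes and lists were chosen with earlier results of these data known.

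The pigs were separate animals in individual pens, and the sources used here do not say that the replicate numbers pair them. Alternatives were DESeq2 1.42.0, RLE, other filters, all pigs in 1 fit, sex as a covariate, a replicate block, thinning to 705669 reads, Spearman's rho and each pig left out. DESeq2 on the genes most like AMD1 was added after seeing the data.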

Additional observations from a re-analysis of the deposited data

Results flagged for a closer look

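Values that stood apart within a diet were sought in the members and 11 genes of linked pathways, in 57 groups, of which chance alone flags about 1 in 20. In beef tallow pig 3, OTC was at 249 CPM, below the other pigs of group B at 336 to 359 CPM. In the same pig GNMT was at 1075 CPM, above the other pigs of the group at 417 to 561 CPM.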

How the results depend on the processing

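Between groups R and B, AMD1 was called under all 8 alternatives that kept every pig, with a log2 fold change of 1.03 to 1.09 and an adjusted p of 0.00104 to 0.0444. With each pig left out, 0 to 1 members were called, as given above. Of 201 values of the members under alternatives that kept every pig, 201 kept their direction or stayed uncalled on the same side of the threshold. Of 224 with a pig left out, 218 did and 6, all of AMD1, lost the call. No paired reading of the replicate numbers was made: the correlation of same-numbered pigs was -0.25 to 0.14 and 4 of 15 pigs correlated best with their own number. With the replicate number as a block, the pairing left 35 genes called between groups R and B, AMD1 among them (1.09, adjusted p = 0.0444).

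The count over all genes depended more on the setting. Between groups R and B it was 188 by DESeq2, 190 without a filter and 9 to 149 with a pig left out, the most without beef tallow pig 3. Between groups R and C it was 93 by DESeq2, 82 without a filter, 14 with at least 10 reads in every pig and 3 to 27 with a pig left out. Between groups B and C it was 53 by DESeq2, 22 without a filter, 8 with all 16 pigs in 1 fit and 4 to 9 with a pig left out. Between the sexes it was 11 by DESeq2 and 10 without a filter. Of the linked pathway genes, 1 was called by DESeq2 between groups R and B (OTC), 0 to 1 with a pig left out (ARG1), and 1 between groups B and C by DESeq2 and without a filter (GNMT). Of the 5 genes picked for likeness to AMD1 in these same pigs, DESeq2 called TMED5 and DDX21 between groups R and B. The causes were not tested. PAOX, OAZ2 and AZIN1 rest on few reads, which limits what can be seen of them.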
